A study of Canis lupus familiaris with 24 samples.

Results

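The 10 genes described here encode parts of the tight junction: the claudins CLDN1, CLDN2, CLDN3, CLDN4, CLDN6 and CLDN7, the membrane proteins OCLN (occludin) and IGSF5, and the cytoplasmic plaque proteins TJP3 and CGN. They were chosen with earlier results of these data known and taken by symbol from a count table of 32704 dog genes. A share of members called, set beside the share of all tested genes, is therefore a description and not a test. All 10 were among the 12466 genes that passed a filter on low counts and were tested. CLDN2 and CLDN6 each passed only through their counts in 1 of the sublines. Their RNA was measured by mRNA-seq in 24 libraries of MDCK cells, an established epithelial line from dog kidney, in 8 groups of 3 libraries. MDCK-II cells, 1 of the sublines, had a day 0 group and a day 4 group without treatment, which the labels call epithelial, and a day 4 group with TGFb, labelled partial EMT (epithelial-to-mesenchymal transition). MDCK-NBL2 cells, the other subline, had the same 3 groups, with the label full EMT for the treated one. In 2 further groups TGFb-treated MDCK-NBL2 cells also received, to day 4, a control siRNA (siCTR, labelled full EMT) or an siRNA against the transcription factor PRRX1 (siPRRX1, labelled partial EMT). Both siRNA groups therefore carried TGFb. Replicates are numbered in the labels, but whether each was a culture of its own is not said, and the p-values below therefore measure the spread between these libraries, which may be technical.

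Tight junctions seal the space between neighbouring epithelial cells just below their apical surface. Claudins cross the membrane and polymerise into strands, and the mix of claudins in a strand sets which ions and how much water pass between cells: CLDN2 forms a pore for cations and water, whereas CLDN1, CLDN3 and CLDN4 are known mainly as sealing claudins. Occludin sits in the same strands, IGSF5 (also called JAM4) is an immunoglobulin-type adhesion protein of kidney and gut epithelium, and TJP3 (ZO-3) and CGN (cingulin) belong to the plaque that ties the strands to the actin and microtubule cytoskeleton. Loss of junctional proteins is part of what EMT means, and TGFb is a classical inducer of EMT in kidney cell lines.

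Library totals ran from 6134929 to 27567296 counts. Untreated day 4 replicate 2 of MDCK-NBL2 stood apart from the other libraries of its label. On the first principal component, which held 59.4% of the variance, it lay at 59.3, against -4.85 and -20.0 for replicates 1 and 3 and 84.1 to 98.7 for the TGFb-treated libraries. TGFBI, a gene named for its induction by TGFb, stood at 1583 CPM (counts relative to the TMM-scaled library size) there and at 0.325 and 0.229 CPM in replicates 1 and 3. In MDCK-NBL2 day 0 replicate 1, the median of 20 genes that marked MDCK-II was 8.63% of the level there, against at most 0.627% in the other MDCK-NBL2 libraries. Both were kept under their labels, and values without them stand beside the results that they moved. Of 9 kidney epithelial markers written down, 7 were in the table and summed to 1094 to 2890 CPM over all libraries, and CDH16, the kidney cadherin, had no count in the 3 TGFb-treated MDCK-NBL2 groups. Fibroblast markers (8 genes) summed to at most 7.42 CPM in untreated MDCK-II, 13.7 to 48.3 CPM in TGFb-treated MDCK-II, 14.5 to 73.8 CPM in MDCK-NBL2 at day 0, 34.9 to 841 CPM untreated at day 4 and 1576 to 4944 CPM in its 3 TGFb-treated groups. Between 1 and 6 of the 8 had a count in a group, mainly the collagens COL1A1 and COL1A2 where the sum was high, while FAP had no count in any library and DCN at most 0.265 CPM. Endothelial markers (8 genes in the table) summed to 91.1 to 426 CPM, of which FLT1 alone reached 423 CPM while PECAM1 and CDH5 stayed at or under 0.339 CPM. Leukocyte markers (7 genes) summed to 1.38 to 5.54 CPM, with CD3E at 0 and PTPRC at or under 0.198 CPM. The part of these markers in the results below was not tested. In bulk RNA, fewer cells with a transcript and less of it per cell cannot be told apart.

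The sublines differed first in which claudins they expressed. CLDN2 (gene ENSCAFG00000031946) was at 6.56, 12.1 and 13.6 CPM in MDCK-II at day 0, at 33.0, 0.993 and 1.73 CPM untreated at day 4, and at 10.8, 1.39 and 3.35 CPM with TGFb, in replicates 1, 2 and 3. In MDCK-NBL2, 13 of the 15 libraries had no CLDN2 count, and the other 2 held 12 counts (day 0 replicate 1) and 3 counts (untreated day 4 replicate 1). Every MDCK-II library thus exceeded every MDCK-NBL2 library, while the MDCK-II libraries themselves spread widely at day 4. Because CLDN2 entered the tested genes only through MDCK-II, its difference between the sublines is described without a test. At day 0, all 12 counts on the MDCK-NBL2 side came from replicate 1, where CLDN2 was 7.73% of its MDCK-II mean, close to the 8.63% of the other MDCK-II genes. Without that library CLDN2 was at least 134-fold lower in MDCK-NBL2, where no count is set at a floor of 3 over the group. Untreated at day 4, MDCK-II held 503 CLDN2 counts against 3, or 192 times as many at equal depth (95% counting error 65.3 to 934). Of these, 458 and all 3 came from the replicate 1 libraries. The ratio was 23.3 without MDCK-II replicate 1 and 422 without MDCK-II replicate 2. It was 106 without MDCK-NBL2 replicate 2, and without MDCK-NBL2 replicate 1 CLDN2 was at least 114-fold lower in that subline. With TGFb the 188 counts in MDCK-II against 0 put CLDN2 at least 26.5-fold lower in MDCK-NBL2.

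CLDN6, a claudin of embryonic epithelia that is low in most adult tissue, had the opposite distribution. CLDN6 (ENSCAFG00000019337) lay between 0.746 and 1.27 CPM in the 9 MDCK-II libraries. In MDCK-NBL2 it was at 8.38, 6.94 and 4.44 CPM at day 0, at 14.1, 21.2 and 12.4 CPM untreated at day 4, and at 16.5, 12.5 and 10.97 CPM with TGFb. No MDCK-NBL2 library fell into the MDCK-II range. In the edgeR quasi-likelihood fit the log2 difference (± standard error) was 3.06 ± 0.31 at day 0. It was 3.91 ± 0.30 untreated at day 4 and 3.84 ± 0.31 with TGFb. Because CLDN6 entered the tested genes only through MDCK-NBL2, its difference between the sublines is described without a test. CLDN9, the neighbour of CLDN6 in the RefSeq annotation of the dog assembly UU_Cfam_GSD_1.0 and a close relative in sequence, was at most 0.24 CPM in any library. How reads shared by related claudins were assigned is not given in the sources used here.

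**Figure D1:**
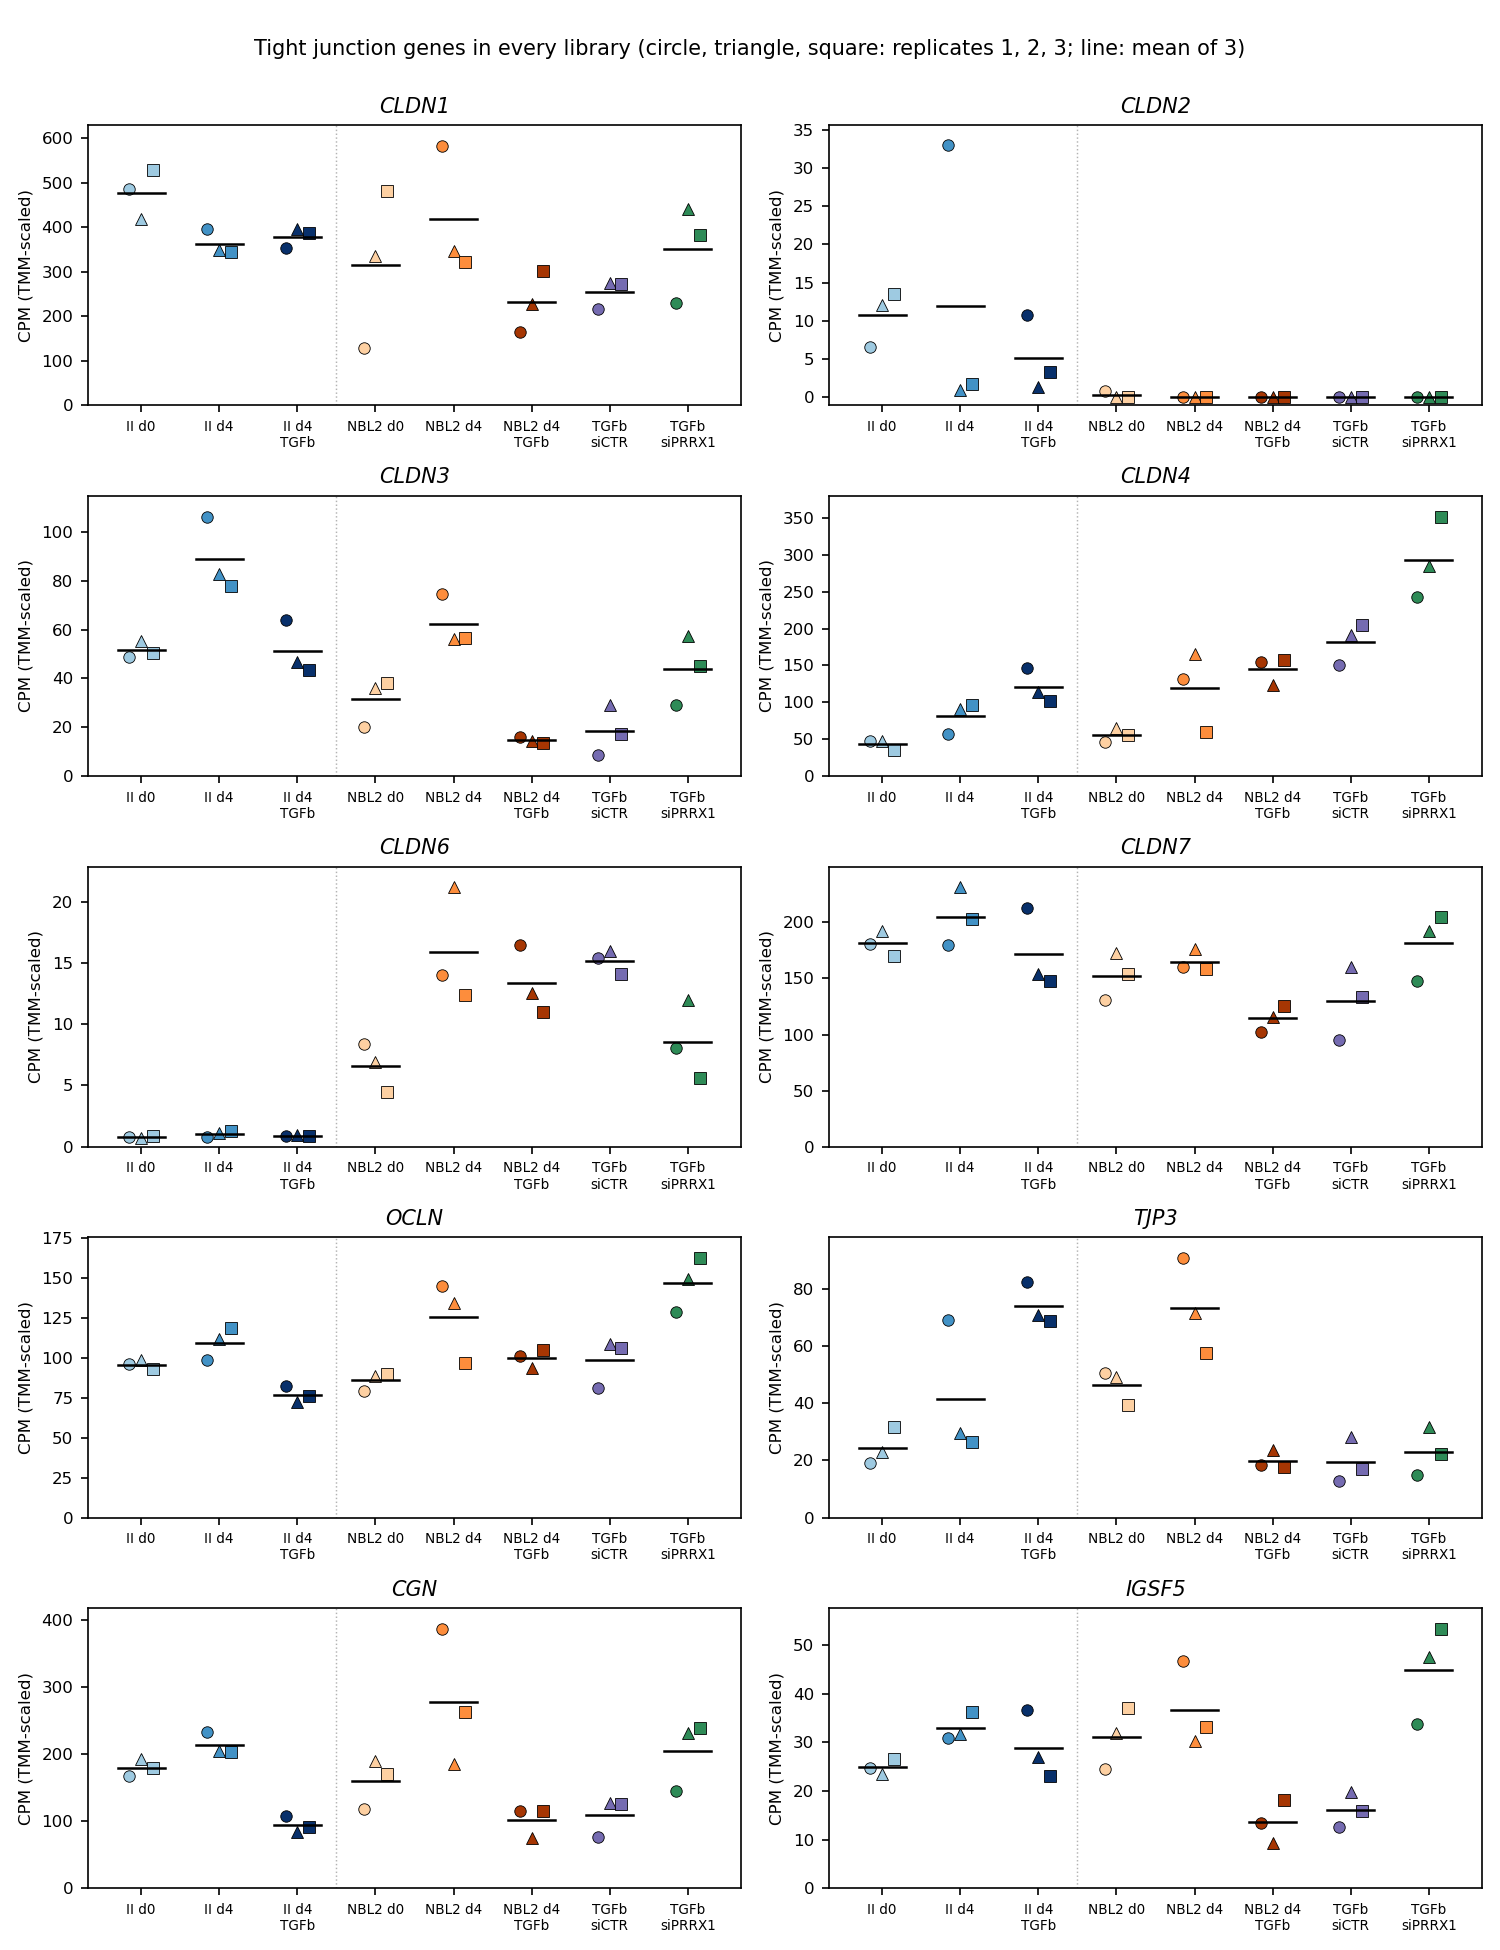
Level of each tight junction gene in every library, in CPM on TMM-scaled library sizes, by group; circles, triangles and squares are replicates 1, 2 and 3 and the line is the mean of 3. CLDN2 stays at or near 0 in MDCK-NBL2, CLDN6 stays below 1.27 CPM in MDCK-II, and TJP3 lies between 69.0 and 82.6 CPM in TGFb-treated MDCK-II but between 17.6 and 23.6 CPM in TGFb-treated MDCK-NBL2.

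Before treatment, few of the other members passed the test between the sublines. At day 0, 2 of the 10 genes were called higher in MDCK-NBL2: TJP3, and CLDN6, which was tested only because of its MDCK-NBL2 counts. The 1 called lower was CLDN2, tested only because of its MDCK-II counts, an adjusted p under 0.05 being called throughout. Of all tested genes, 14.8% were called higher and 13.8% lower. Untreated at day 4, CLDN6 was called higher and CLDN2 lower, against 21% and 15.3% of all tested genes, and the same was so without the MDCK-NBL2 library that stood apart. TJP3 at day 0 was at 19.2, 22.8 and 31.6 CPM in MDCK-II and at 50.7, 49.1 and 39.5 CPM in MDCK-NBL2, groups that did not overlap (0.93 ± 0.34 on the log2 scale, edgeR adjusted p = 0.0435). That call was lost when any 1 of 5 of these 6 libraries was left out (adjusted p = 0.0512 to 0.158), and under 6 of 14 alternatives in all. Untreated at day 4, TJP3 differed by 0.82 and missed the threshold (edgeR adjusted p = 0.0597), and it passed under 4 of 14 alternatives. The log2 differences of the other 7 genes lay between -0.72 and 0.36 at day 0 and between -0.51 and 0.55 at day 4, and none of them was called.

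With TGFb, 2 members passed the test in MDCK-II and 6 in MDCK-NBL2. In MDCK-II, OCLN and CGN were called lower against untreated cells of the same day, 2 of 10 where 9.27% of all tested genes were called lower. No member was called higher by edgeR or by DESeq2, 1 had an unadjusted p under 0.05, and 11.8% of all tested genes were called higher. In MDCK-NBL2, 6 of 10 were called lower (CLDN1, CLDN3, CLDN7, TJP3, CGN and IGSF5), where 23.4% of all tested genes were. Again neither tool called a member higher, none had an unadjusted p under 0.05 in that direction, and the share among all tested genes was 21%. The median log2 fold change of the 10 genes was -0.22 in MDCK-II and -1.15 in MDCK-NBL2, beside -0.03 and -0.04 over all genes tested.

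Among the claudins, CLDN3 (ENSCAFG00000012532), a sealing claudin, had the largest called fall in MDCK-NBL2. It was at 74.5, 56.3 and 56.4 CPM untreated and at 16.1, 14.3 and 13.7 CPM with TGFb, so every treated library lay far below every untreated one. The change was -2.09 ± 0.34 on the log2 scale (edgeR adjusted p = 0.000124), a 4.26-fold fall. In MDCK-II CLDN3 went from 106, 82.7 and 78.1 CPM to 64.1, 46.7 and 43.4 CPM, without overlap, and the change of -0.79 ± 0.31 was not called (adjusted p = 0.0733). Libraries with the same replicate number deviated together in this comparison, and with the number as a block in a fit of these 2 groups CLDN3 passed at -0.78 (adjusted p = 0.0032). TGFb-treated MDCK-II cells, at 43.4 to 64.1 CPM, overlapped their own day 0 level of 48.9 to 55.4 CPM, while in TGFb-treated MDCK-NBL2 CLDN3 fell below its day 0 level of 20.1, 36.2 and 38.1 CPM (-1.10 ± 0.33, adjusted p = 0.00842).

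CLDN1 (ENSCAFG00000029313), a sealing claudin best known from the skin barrier, was at 583, 347 and 322 CPM in untreated MDCK-NBL2 and at 165, 228 and 301 CPM with TGFb. The groups were separate but close, and the change of -0.85 ± 0.34 just passed (edgeR adjusted p = 0.0482). It was lost under 6 of 14 alternatives. Among them were fits without untreated replicate 1 (-0.53, adjusted p = 0.254), without treated replicate 1 or 2 (0.18 and 0.103), with DESeq2 size factors (0.0523) and of these 2 groups alone (0.11). In MDCK-II CLDN1 was at 397, 348 and 343 CPM untreated and at 354, 396 and 387 CPM with TGFb, which overlap (0.06 ± 0.34, 95% interval -0.64 to 0.77, adjusted p = 0.925).

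CLDN7 (ENSCAFG00000016124), a claudin of the lateral membrane, was lower with TGFb in MDCK-NBL2. It went from 160, 176 and 159 CPM to 102, 115 and 125 CPM (-0.53 ± 0.18, edgeR adjusted p = 0.0206), groups that did not overlap, and the call was lost without treated replicate 1 (adjusted p = 0.0841) and in fits of the 2 groups alone without and with the replicate block (0.0683 and 0.111). In MDCK-II its 180, 231 and 203 CPM untreated overlapped its 213, 154 and 148 CPM with TGFb (-0.25 ± 0.17, adjusted p = 0.312). The difference between the responses, -0.27 ± 0.25, was not called (adjusted p = 0.563).

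CLDN4 (ENSCAFG00000012523), the sealing claudin next to CLDN3 on the chromosome in the RefSeq annotation, was not lower with TGFb. With TGFb it was at 147, 113 and 102 CPM in MDCK-II, where untreated cells had 57.3, 90.5 and 96.3 CPM, and at 154, 124 and 157 CPM in MDCK-NBL2, where untreated cells had 132, 166 and 59.7 CPM. The treated libraries lay above the untreated ones in MDCK-II and overlapped them in MDCK-NBL2, and neither change was called (0.57 ± 0.28 and 0.28 ± 0.28 on the log2 scale, edgeR adjusted p = 0.145 and 0.429). The ratio of CLDN4 to CLDN3 counts within a library needs no scaling between libraries. In MDCK-II it was 0.833 ± 0.138 (SD, n = 3) at day 0 and 0.955 ± 0.367 untreated at day 4, and with TGFb it was 2.36 ± 0.0676, its 3 libraries at 2.29 to 2.43 lying above the 0.538 to 1.23 of the untreated ones. In MDCK-NBL2 it was 1.84 ± 0.414 at day 0, 1.92 ± 0.955 untreated at day 4 and 9.91 ± 1.43 with TGFb, with the treated libraries at 8.69 to 11.5 and the untreated ones at 1.06 to 2.95. The ratio was 11.9 ± 5.36 with siCTR and 7.04 ± 1.81 with siPRRX1, where the libraries overlapped (6.57 to 17.3 and 4.97 to 8.30). The size of the ratio also carries the unequal lengths of the 2 transcripts, and only its change between groups is read here.

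**Figure D2:**
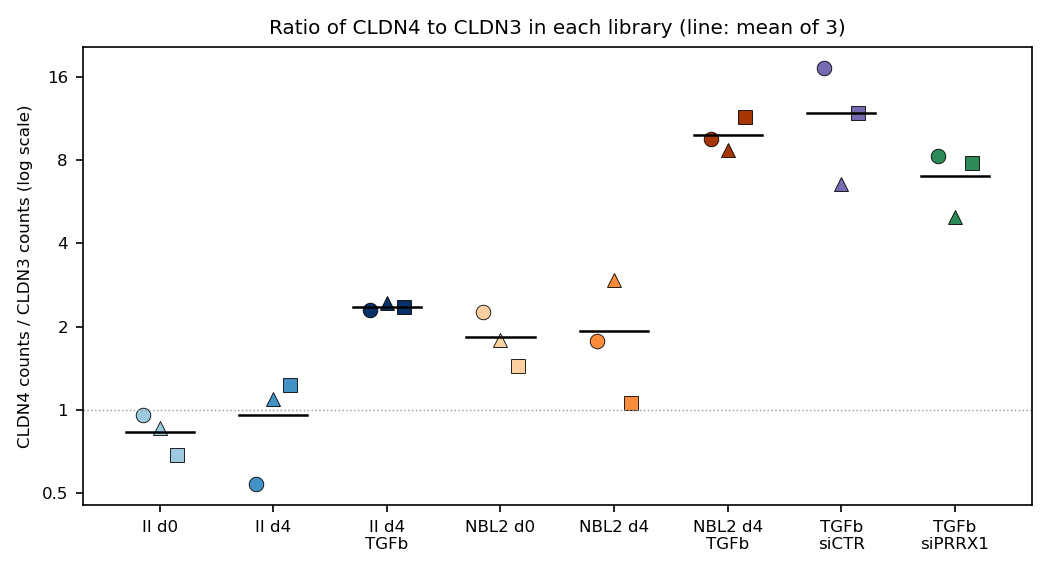
Ratio of CLDN4 to CLDN3 counts in each library, on a log scale, by group, with the mean of 3 as a line. The TGFb-treated libraries lie above the untreated libraries of the same subline, at 2.29 to 2.43 in MDCK-II and at 8.69 to 11.5 in MDCK-NBL2.

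CLDN6 was not called with TGFb in either subline (-0.19 ± 0.34 in MDCK-II and -0.26 ± 0.25 in MDCK-NBL2, edgeR adjusted p = 0.735 and 0.406). CLDN2 was not called either: its untreated MDCK-II libraries alone ran from 0.993 to 33.0 CPM, and in MDCK-NBL2 it had 3 counts untreated and 0 with TGFb.

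Of the other membrane proteins, OCLN (ENSCAFG00000007805) was at 98.5, 112 and 118 CPM in untreated MDCK-II and at 82.3, 72.0 and 76.1 CPM with TGFb. All treated libraries were lower (-0.51 ± 0.14, edgeR adjusted p = 0.0136), and the call was lost without untreated replicate 3 (0.0562) or treated replicate 2 (0.0673). In MDCK-NBL2 OCLN was at 145, 134 and 96.5 CPM untreated and at 101, 93.3 and 105 CPM with TGFb, groups that overlapped (-0.33 ± 0.14, adjusted p = 0.0575). IGSF5 (ENSCAFG00000010067) was at 46.6, 30.2 and 33.2 CPM in untreated MDCK-NBL2 and at 13.4, 9.26 and 18.0 CPM with TGFb, with no overlap (-1.44 ± 0.25, adjusted p = 0.000217). This call missed in 1 alternative, the fit of the 2 groups with the replicate block (-1.47, 0.0635). In MDCK-II it was at 30.8, 31.7 and 36.2 CPM untreated and at 36.6, 26.9 and 23.1 CPM with TGFb, with the treated libraries spread around the untreated ones (-0.19 ± 0.23, adjusted p = 0.609).

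Of the plaque proteins, CGN (ENSCAFG00000012729) fell in both sublines. In MDCK-II it went from 234, 205 and 204 CPM to 109, 84.8 and 91.9 CPM (-1.17 ± 0.26, edgeR adjusted p = 0.00445), a call kept under every alternative setting. In MDCK-NBL2 it went from 387, 186 and 264 CPM to 115, 74.8 and 116 CPM (-1.45 ± 0.26, adjusted p = 0.000314), a call that narrowly missed in fits of these 2 groups alone without and with the replicate block (-1.47 and -1.43, 0.0516 and 0.0569). No treated library reached an untreated one in either subline.

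TJP3 (ENSCAFG00000019197) had log2 fold changes of opposite sign in the sublines. In MDCK-NBL2 it was at 90.8, 71.6 and 57.7 CPM untreated and at 18.4, 23.6 and 17.6 CPM with TGFb, with no overlap (-1.88 ± 0.35, edgeR adjusted p = 0.000378). In MDCK-II it was at 69.2, 29.6 and 26.3 CPM untreated and at 82.6, 71.1 and 69.0 CPM with TGFb. There untreated replicate 1 reached the treated level and replicates 2 and 3 did not, and the change of 0.83 ± 0.33 was not called (adjusted p = 0.0782). It passed with the replicate number as a block in a fit of the 2 groups (0.98, adjusted p = 0.0284) and without untreated replicate 1 (1.41, 0.00529). Against day 0, at 19.2, 22.8 and 31.6 CPM, TJP3 in TGFb-treated MDCK-II was higher by 1.61 ± 0.34 (adjusted p = 0.00218), and in TGFb-treated MDCK-NBL2 it was lower than at day 0 by -1.22 ± 0.35 (adjusted p = 0.00551). Over all 8 groups, TJP3 was highest on average in TGFb-treated MDCK-II (74.2 CPM) and untreated day 4 MDCK-NBL2 (73.4 CPM), which overlapped. The next group, MDCK-NBL2 at day 0 (46.4 CPM), lay below both, and the 3 TGFb-treated MDCK-NBL2 groups were lowest, at 19.3 to 23.0 CPM, and overlapped one another and MDCK-II at day 0 (24.5 CPM).

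**Figure D3:**
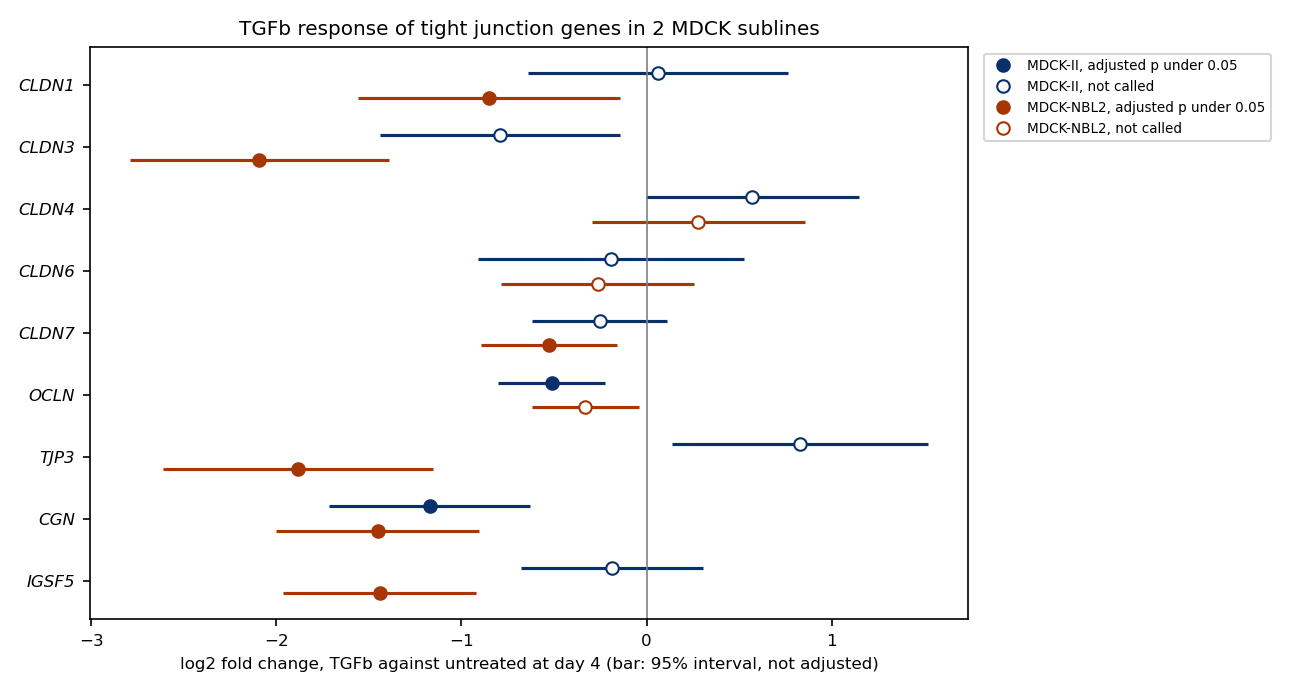
Log2 fold change of each gene with TGFb against untreated cells at day 4, in MDCK-II (blue) and MDCK-NBL2 (brown), with unadjusted 95% intervals; filled points have an adjusted p under 0.05. CLDN2 is left out because MDCK-NBL2 held 3 counts of it. TJP3 lies at 0.83 in MDCK-II and at -1.88 in MDCK-NBL2, while CGN lies at -1.17 and -1.45.

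Whether the responses of the sublines differed was tested as an interaction (TGFb response in MDCK-NBL2 minus that in MDCK-II). TJP3 differed by -2.71 ± 0.48 (edgeR adjusted p = 0.0043) and IGSF5 by -1.25 ± 0.34 (adjusted p = 0.0377), so 2 of 10 members were called lower where 3.18% of all tested genes were. No member was called higher by edgeR or by DESeq2, and none had an unadjusted p under 0.05 in that direction, beside 2.52% of all tested genes called. The TJP3 difference was called under every alternative setting. The IGSF5 difference was lost in a fit of these 4 groups alone (adjusted p = 0.149), with the replicate block in that fit (0.129), and when any 1 of 8 of the 12 libraries was left out (0.0552 to 0.0957). CLDN3 differed by -1.30 ± 0.45 and missed the threshold (adjusted p = 0.0916). Without untreated MDCK-NBL2 replicate 2, the library that stood apart, it passed at -1.37 (0.0456). CGN differed by -0.28 ± 0.36 (95% interval -1.04 to 0.48) and OCLN by 0.18 ± 0.19 (-0.22 to 0.59), intervals that include both no difference and moderate ones. CLDN1 differed by -0.91 ± 0.48 (adjusted p = 0.264). Leaving out the library that stood apart left the same 6 members called lower with TGFb in MDCK-NBL2, among them CLDN3 at -2.17, TJP3 at -1.90 and CGN at -1.68.

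Between the treated sublines more of the members passed the test than between the untreated ones, as was so of all tested genes. With TGFb, 5 of 10 members were lower in MDCK-NBL2 than in MDCK-II (CLDN2, CLDN3, CLDN7, TJP3 and IGSF5), where 22.3% of all tested genes were. The 2 higher were CLDN6 and OCLN, where 23.7% of all tested genes were. CLDN2 had entered the test through MDCK-II alone and CLDN6 through MDCK-NBL2 alone. TJP3 differed by -1.90 ± 0.35, CLDN3 by -1.81 ± 0.33 and IGSF5 by -1.09 ± 0.25 on the log2 scale (edgeR adjusted p = 0.000251, 0.000252 and 0.00154), and these 3 calls held under every alternative. The call of CLDN7 (-0.59 ± 0.18, adjusted p = 0.011) was lost without replicate 1 of either treated group (0.0778 and 0.0525). That of OCLN (0.38 ± 0.14, 0.0319) was lost without any 1 of 4 of the 6 libraries (0.0736 to 0.107), and under 6 of 15 alternatives in all. CGN was at 84.8 to 109 CPM in MDCK-II and at 74.8 to 116 CPM in MDCK-NBL2 (0.10 ± 0.26, adjusted p = 0.78). These comparisons share their libraries with the TGFb comparisons above and are not independent of them.

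**Figure D4:**
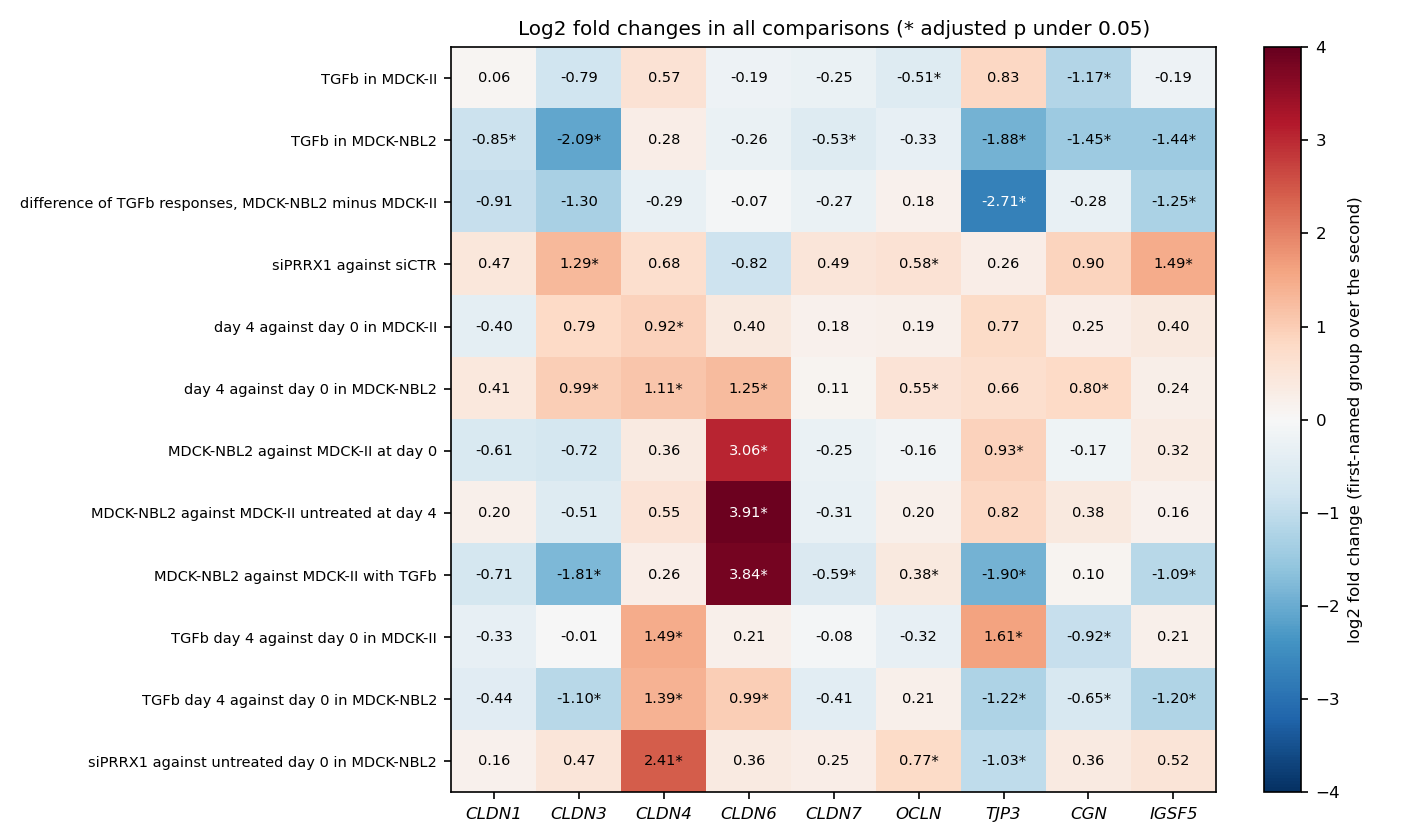
Log2 fold changes of 9 of the genes (columns) in all 12 comparisons (rows), with an asterisk at an adjusted p under 0.05; red is higher and blue lower in the group named first. CLDN2 is left out because most MDCK-NBL2 libraries held no count. CLDN6 stands at 3.06 to 3.91 between the sublines, where it entered the tested genes through MDCK-NBL2 alone. CLDN4 has positive values in every row but that of the difference of responses.

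Between day 0 and day 4 without treatment, some of these genes passed the test, and what lay behind that was not tested. In untreated MDCK-II, CLDN4 went from 46.9, 47.5 and 34.6 CPM at day 0 to 57.3, 90.5 and 96.3 CPM at day 4 (0.92 ± 0.28, edgeR adjusted p = 0.0438). It was the single member called higher, where 5.76% of all tested genes were. The call was lost when any 1 of 5 of the 6 libraries was left out (0.0909 to 0.158), and under 7 of 15 alternatives in all. Neither edgeR nor DESeq2 called a member lower, none had an unadjusted p under 0.05 in that direction, and 4.05% of all tested genes were called lower. In untreated MDCK-NBL2, 5 of 10 members were called higher at day 4, where 12.4% of all tested genes were: CLDN3 (0.99 ± 0.31), CLDN4 (1.11 ± 0.28), CLDN6 (1.25 ± 0.25), OCLN (0.55 ± 0.14) and CGN (0.80 ± 0.26), with adjusted p = 0.0359, 0.0134, 0.00533, 0.0135 and 0.038. Again neither tool called a member lower and none had an unadjusted p under 0.05 in that direction, beside 5.26% of all tested genes called. OCLN, for example, was at 79.0, 88.8 and 90.1 CPM at day 0 and at 145, 134 and 96.5 CPM at day 4. Both doubtful libraries enter this comparison. Without day 0 replicate 1, 1 of the 5 calls remained (CLDN6), without untreated day 4 replicate 2 there were 4 (CLDN4 missed, adjusted p = 0.0566), and none passed in a fit of these 2 groups alone.

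CLDN4 and CLDN3 at the end of TGFb treatment can also be set against day 0. CLDN4 was higher by 1.49 ± 0.28 in TGFb-treated MDCK-II and by 1.39 ± 0.28 in TGFb-treated MDCK-NBL2 (edgeR adjusted p = 0.0011 and 0.000408), and no treated library overlapped a day 0 library. In MDCK-II, 2 members were called higher against day 0 (CLDN4 and TJP3, 17.8% of all tested genes) and 1 lower (CGN, 18.4%). In MDCK-NBL2, 2 were called higher (CLDN4 and CLDN6, 31.2% of all tested genes) and 4 lower (CLDN3, TJP3, CGN and IGSF5, 27.1%). The CGN call was lost without TGFb-treated replicate 2 in MDCK-II (adjusted p = 0.0506) and without day 0 replicate 2 or 3 or TGFb-treated replicate 2 in MDCK-NBL2 (0.0885 to 0.169). Without day 0 replicate 1, CLDN1 (-0.82, 0.0179) and CLDN7 (-0.51, 0.031) were also called lower in MDCK-NBL2. CLDN7 lay at the threshold there (-0.41, 0.0508) and passed under 9 of 14 alternatives.

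The knockdown asked what PRRX1 contributed in TGFb-treated MDCK-NBL2 cells. PRRX1 was at 33.9, 7.35 and 3.88 CPM with siCTR and at 1.11, 0.339 and 0 CPM with siPRRX1, a fall in each numbered pair of libraries (-4.64 ± 1.17, edgeR adjusted p = 0.0435). With siPRRX1, 3 of 10 members were called higher (CLDN3, OCLN and IGSF5), where 0.81% of all tested genes were. No member was called lower by edgeR or DESeq2, 1 had an unadjusted p under 0.05, and 1.19% of all tested genes were called lower. The median log2 fold change of the members was 0.53, beside 0 over all genes tested.

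IGSF5 was at 12.6, 19.8 and 15.9 CPM with siCTR and at 33.8, 47.4 and 53.3 CPM with siPRRX1, with no overlap (1.49 ± 0.25, edgeR adjusted p = 0.00298), and this call held under every alternative. CLDN3 was at 8.75, 29.1 and 17.3 CPM with siCTR and at 29.3, 57.3 and 44.9 CPM with siPRRX1 (1.29 ± 0.33, adjusted p = 0.047). Its groups nearly touched, at 29.1 and 29.3 CPM. OCLN went from 80.8, 109 and 106 CPM to 129, 149 and 162 CPM (0.58 ± 0.14, adjusted p = 0.0327). The calls of CLDN3 and OCLN were each lost when siCTR replicate 1 or 3 or siPRRX1 replicate 2 or 3 was left out (adjusted p up to 0.214 and 0.209). In all, CLDN3 was lost under 5 and OCLN under 4 of 15 alternatives. Without siCTR replicate 1 CLDN3 stood at 0.91.

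The replicates fall into 2 series of library numbers, with replicate 1 of both siRNA groups in 1 series and replicates 2 and 3 in the other, and libraries with the same number deviated together. Replicate 1 of TGFb-treated MDCK-NBL2 without siRNA also belongs to the series of siRNA replicates 2 and 3. All other libraries belong to that of siRNA replicate 1, so the series also enters the comparisons of TGFb-treated MDCK-NBL2. In numbered pairs IGSF5 was higher with siPRRX1 by 2.68, 2.40 and 3.36 times, CLDN3 by 3.35, 1.97 and 2.60 times, CGN by 1.90, 1.82 and 1.89 times, OCLN by 1.60, 1.37 and 1.53 times and CLDN4 by 1.61, 1.49 and 1.71 times. These 5 genes, and CLDN1, CLDN7 and TJP3, were higher in 3 of 3 pairs, in both series. With the replicate number as a block in a fit of the siRNA groups, IGSF5, CLDN3 and OCLN were again called higher. So were CGN (0.91, edgeR adjusted p = 7e-05), CLDN4 (0.68, 0.000278), CLDN7 (0.51, 0.00315) and CLDN1 (0.42, 0.0243). That fit also called far more of all genes than the fit without the block. The share of 0.81% given above is therefore not the one to set beside these calls. They are not read as an excess over all genes. The counts of both fits stand below, with the dependence on the processing. In the fit without the block CGN was at 76.3, 127 and 127 CPM with siCTR and at 145, 232 and 239 CPM with siPRRX1 and missed the threshold (0.90 ± 0.26, adjusted p = 0.0815), as did CLDN4 (0.68 ± 0.28, 0.237).

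CLDN6 had values in the other direction, and TJP3 was nearly level. CLDN6 was at 15.4, 15.97 and 14.1 CPM with siCTR and at 8.02, 12.0 and 5.65 CPM with siPRRX1, lower in 3 of 3 pairs and without overlap. The change of -0.82 ± 0.25 was not called (edgeR adjusted p = 0.107), and it was called with the block (-0.85, 0.00875). TJP3 was at 12.8, 28.1 and 17.0 CPM with siCTR and at 14.9, 31.6 and 22.3 CPM with siPRRX1, 1.13 to 1.31 times higher within pairs (0.26 ± 0.35, 95% interval -0.46 to 0.99, adjusted p = 0.804). CLDN2 had no count in either siRNA group. Fibroblast markers summed to 3790 to 4237 CPM with siCTR and to 1576 to 2913 CPM with siPRRX1, and the kidney epithelial markers to 1094 to 1441 and 1646 to 2218 CPM. Their part in these differences was not tested.

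**Figure D5:**
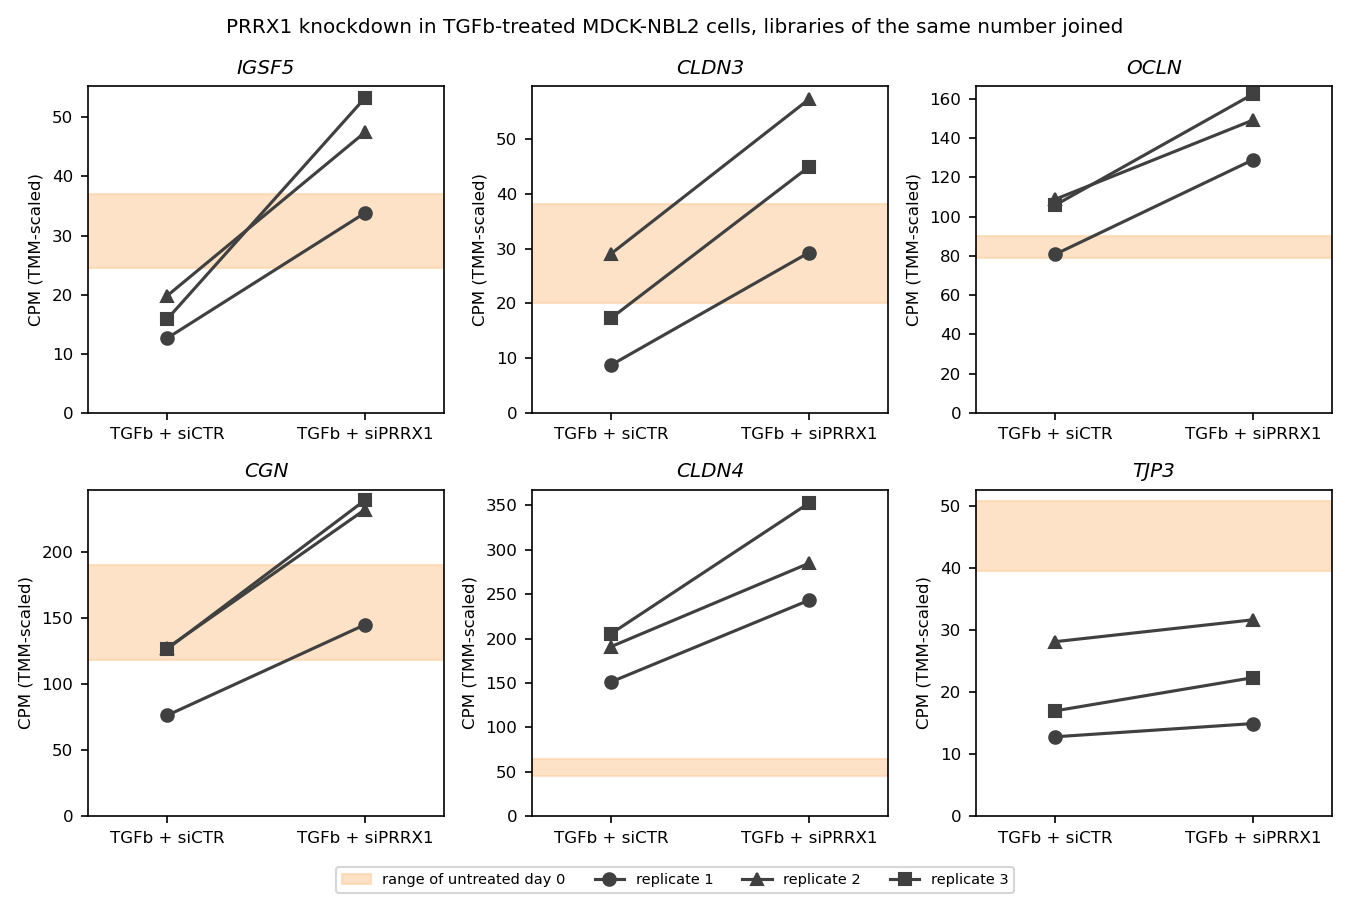
Levels in CPM of 6 genes in TGFb-treated MDCK-NBL2 cells with siCTR and siPRRX1, with libraries of the same replicate number joined and the range of untreated day 0 shaded. Each line goes up from siCTR to siPRRX1, and the siPRRX1 libraries of TJP3 (14.9 to 31.6 CPM) lie below the day 0 range while those of CLDN4 (243 to 352 CPM) lie above it.

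Set against untreated MDCK-NBL2 cells at day 0, the TGFb-treated cells with siPRRX1 overlapped in some of these genes and not in others. IGSF5 was at 24.5, 31.9 and 37.0 CPM at day 0, a range overlapped by its 33.8 to 53.3 CPM with siPRRX1 (0.52 ± 0.24, edgeR adjusted p = 0.0643). CLDN3, CGN, CLDN1 and CLDN7 overlapped their day 0 ranges too and were not called. Under 14 alternatives, IGSF5 was called higher in 3, and CLDN3 and CGN in 1 each. TJP3 stayed below its day 0 libraries (-1.03 ± 0.34, adjusted p = 0.0146), a call lost without siPRRX1 replicate 1 (-0.79, 0.0842). CLDN4 was 5.30-fold above day 0 (2.41 ± 0.29, adjusted p = 4.38e-06) and OCLN 1.71-fold (0.77 ± 0.14, 0.000142), and no library overlapped. Day and TGFb differ here as well as the siRNA, and with siCTR CLDN4 was at 151 to 205 CPM and OCLN at 80.8 to 109 CPM. So 2 members were called higher, where 30.7% of all tested genes were, and 1 lower, where 26.3% were. All day 0 libraries belong to the number series of siPRRX1 replicate 1, and that library alone, at 243 CPM of CLDN4, 129 CPM of OCLN and 14.9 CPM of TJP3, also lay outside the day 0 ranges of 45.6 to 65.0, 79.0 to 90.1 and 39.5 to 50.7 CPM.

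Other tight junction genes were counted over whole lists, whatever the direction in which they moved. Of 14 further claudins in the table, 4 were tested (CLDN8, CLDN12, CLDN16 and CLDN34). CLDN16, the claudin of magnesium and calcium reabsorption in the thick ascending limb and the neighbour of CLDN1, was at 38.1 to 39.5 CPM in MDCK-II at day 0 and at 1.06 to 3.46 CPM in MDCK-NBL2 (-4.16 ± 0.50, edgeR adjusted p = 3.63e-06). CLDN8, a claudin of the distal nephron, had no count in the 9 MDCK-II libraries and a count in all 15 MDCK-NBL2 libraries, at 0.139 to 5.85 CPM. The sublines thus differed in CLDN2 and CLDN16 in one direction and in CLDN6 and CLDN8 in the other. With TGFb, edgeR called none of the 4 further claudins in either subline, and none had an unadjusted p under 0.05.

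Of 7 further membrane proteins tested, 1 rose and 1 fell with TGFb in MDCK-II, and 3 rose and none fell in MDCK-NBL2, where 2 had an unadjusted p under 0.05 for a fall. Of all tested genes 11.8% rose and 9.27% fell in MDCK-II, and 21% and 23.4% in MDCK-NBL2. Without the untreated MDCK-NBL2 library that stood apart, 4 rose and 1 fell in MDCK-NBL2, while the calls over all genes went from 5525 to 6890. The adhesion protein JAM3 rose in both (1.66 ± 0.53 and 1.49 ± 0.49, edgeR adjusted p = 0.0335 and 0.0201), from means of 0.997 and 2.04 CPM to 3.05 and 6.06 CPM. ILDR1, a protein of three-cell corners, was called lower in MDCK-II (-2.08 ± 0.61, edgeR adjusted p = 0.021). Its untreated libraries there ran from 0.894 to 6.19 CPM (median 1.39) and overlapped the treated ones at 0.292 to 0.993 CPM. The adhesion proteins CXADR (0.51 ± 0.11, 0.00118) and F11R (0.45 ± 0.16, 0.0304) rose in MDCK-NBL2. MARVELD2 (tricellulin), relative and neighbour of OCLN, was not called in either subline (-0.29 ± 0.17 and -0.43 ± 0.18, adjusted p = 0.242 and 0.0579).

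Of 20 further scaffold and cytoplasmic genes tested, 3 rose and 2 fell with TGFb in MDCK-II, and 3 rose and 4 fell in MDCK-NBL2, shares near those of all tested genes. Without the library that stood apart, 3 rose and 6 fell in MDCK-II and 3 rose and 7 fell in MDCK-NBL2. Calls over all genes then also went from 2626 to 3862 in MDCK-II and from 5525 to 6890 in MDCK-NBL2. TJP1 (ZO-1) rose from a mean of 240 to 311 CPM in MDCK-NBL2 (0.37 ± 0.12, edgeR adjusted p = 0.0192). CGNL1 (paracingulin), the relative of CGN, fell with it in MDCK-NBL2 (-1.66 ± 0.63, adjusted p = 0.0396) and missed the threshold in MDCK-II (-1.52 ± 0.58, 0.068), where it passed without that library (0.0399). In untreated MDCK-II CGNL1 had risen from 3.04, 3.61 and 4.32 CPM at day 0 to 91.7, 43.3 and 62.2 CPM at day 4 (4.18 ± 0.67, adjusted p = 0.000938). In MDCK-II the scaffold MAGI1 rose from 8.57, 5.10 and 6.23 CPM to 21.9, 19.0 and 20.6 CPM with TGFb (1.64 ± 0.25, adjusted p = 0.000269), and AMOTL2, which binds tight junction scaffolds and YAP, by 1.32 ± 0.24 (0.00102). Both responses differed between the sublines (-1.39 ± 0.33 and -1.46 ± 0.33, adjusted p = 0.0217 and 0.0158). With siPRRX1, PRKCZ, an atypical protein kinase C of the apical polarity complex, was the single one of these 31 further junction genes called (0.67 ± 0.14, adjusted p = 0.0138), and 5 had an unadjusted p under 0.05 for a rise and 1 for a fall. Without the library that stood apart 4 were called higher, MARVELD2 among them (0.63, 0.0209), and 1 lower, while the calls over all genes went from 249 to 655.

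Transcription factors known to act on junction genes were counted the same way. Of 14 epithelial factors tested, 1 rose and 4 fell with TGFb in MDCK-II, and 2 rose and 7 fell in MDCK-NBL2, where 9.27% and 23.4% of all tested genes fell. Without the library that stood apart, 2 rose and 7 fell in MDCK-II and 2 rose and 8 fell in MDCK-NBL2, and the calls over all genes grew as given above. KLF5, ELF3 and GRHL2, which support epithelial gene expression, fell in both: KLF5 by -1.28 ± 0.35 and -2.81 ± 0.37, ELF3 by -1.33 ± 0.41 and -2.53 ± 0.44, and GRHL2 by -0.91 ± 0.29 and -1.94 ± 0.31 on the log2 scale (edgeR adjusted p = 0.015 and 3.24e-05, 0.0282 and 0.000222, and 0.034 and 0.000111). With siPRRX1 none of the 14 was called by edgeR, and 1 (TFAP2A) had an unadjusted p under 0.05, for a fall, and was called without that library (-0.62, 0.0371). Of 6 EMT factors tested, 3 rose in each subline, where 11.8% of all tested genes rose in MDCK-II and 21% in MDCK-NBL2. None of the 6 fell or had an unadjusted p under 0.05 for a fall. Those that rose were ZEB1 (3.41 ± 0.82), ZEB2 (5.07 ± 1.64) and SNAI1 (1.27 ± 0.34) in MDCK-II, and ZEB1 (3.18 ± 0.84), SNAI2 (2.51 ± 0.67) and PRRX1 (3.41 ± 1.02) in MDCK-NBL2 (edgeR adjusted p between 0.00513 and 0.035). ZEB2 in MDCK-II rested on 1 count untreated and 49 with TGFb, at most 0.072 and 1.28 CPM. Besides the untreated MDCK-NBL2 library that stood apart, only TGFb-treated libraries brought ZEB2 through the low-count filter. Its values with TGFb, and its place among the 3 that rose in MDCK-II, are therefore a description and not a test. ZEB1 and SNAI2 are known repressors of junction genes. The untreated MDCK-NBL2 library that stood apart held 53.8 CPM of SNAI2, against 5.52 and 9.52 CPM in replicates 1 and 3. Without it the MDCK-NBL2 values were 4.20 for SNAI2, 4.86 for ZEB1 and 4.69 for PRRX1 (adjusted p = 2.54e-05, 0.00116 and 0.0038). SNAI2 then also passed in MDCK-II (1.38, 0.0337). ZEB2 in MDCK-NBL2 stood at 5.93 without that library and at 1.81 with it. Without it only TGFb-treated libraries brought ZEB2 into the test, so no call is read from that value.

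Across the 24 libraries, the gene most like each member was found by Pearson's r of log2(CPM + 1), as a description over libraries that share subline and treatment. CLDN7 was most like another member, CLDN3 (r = 0.876), and CGN most like SH3YL1 (0.906) and PCBD1 (0.902). IGSF5 was most like LNX1 (0.828) and CDH1 (0.820), the gene of E-cadherin. CLDN6 was most like GLT8D2 (0.975) and NOTCH1 (0.972), and CLDN2 most like SP5 (0.964) and CYP4A11 (0.963). For CLDN3 the genes were PSME2 (0.941) and C12H6orf132 (0.913), for CLDN4 CUEDC1 (0.926) and MARK4 (0.925), and for TJP3 HNRNPLL (0.851) and FBXO4 (0.829). OCLN and CLDN1 had no gene above 0.812, with STRADB (0.812) and CLPX (0.810) for OCLN and DIPK2A (0.787) and ADGRG6 (0.774) for CLDN1. Among the members, IGSF5, CLDN3, CLDN7 and CGN went together (r = 0.615 to 0.876 for the 6 pairs), whereas CLDN4 and CLDN3 had r = -0.26 and CLDN2 and CLDN6 r = -0.83.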

How the data were processed

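RNA of 24 MDCK libraries was analysed from a table of whole-number counts per gene that the authors deposited without normalization. RSEM 1.3.0, STAR 2.5.3a, FastQC and the build CanFam3.1 are named in the submitters' processing notes. Their roles, the strand setting and how reads shared by related genes were counted are not stated there. Symbols came from the table. Gene neighbours came from RefSeq's annotation of another assembly (UU_Cfam_GSD_1.0), so no coordinates are given.

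All 24 libraries entered 1 edgeR 4.0.16 quasi-likelihood model (R 4.3.3) with a coefficient for each group and 16 residual degrees of freedom. TMM scaling was used, 12466 of 32704 genes passed filterByExpr (minimum count 10, minimum total 15), and the prior count was 0.125. P-values were adjusted by Benjamini-Hochberg over all tested genes. Standard errors were taken as |log2 fold change| divided by √F. Levels are CPM on TMM-scaled library sizes. A group without a count was set at a floor of 3 counts, which, like the 95% counting intervals, covers counting error only. The fit was checked on simulated data.

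Named were the 10 members in every comparison, PRRX1, the 2 genes most like each member, and, from each further list, the called genes with the smallest adjusted p (up to 4, or up to 2 in the comparisons over time or between sublines). CLDN9, CLDN12, CLDN34, MARVELD2 and other relatives, F11R, and the markers and genes that describe a library were named outside that rule after their values were seen. The members and lists were chosen with earlier results of these data known. The labels' replicate numbers were taken to pair libraries where every same-numbered pair's deviations from the group means correlated above 0.1, which held for TGFb in MDCK-II (lowest r = 0.252) and for siPRRX1 against siCTR (0.164). Alternatives were the DESeq2 1.42.0 size factors and Wald test, testing without the filter, the series of library numbers as a covariate, the replicate number as a block, fits of the compared groups only, and each library left out.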

Additional observations from a re-analysis of the deposited data

Results flagged for a closer look

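The TGFb responses of TJP3 and IGSF5 differed between the sublines by the interaction test. TJP3 differed by -2.71 on the log2 scale (MDCK-NBL2 minus MDCK-II, edgeR adjusted p = 0.0043): it was lower with TGFb in MDCK-NBL2 (-1.88) and had a positive value in MDCK-II (0.83, adjusted p = 0.0782) that passed only with the replicate block in a fit of the 2 groups or without untreated replicate 1. IGSF5 differed by -1.25 (adjusted p = 0.0377), with -1.44 in MDCK-NBL2 and -0.19 in MDCK-II, and this difference was lost in a fit of the 4 groups alone (0.149).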

How the results depend on the processing

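Of 43 calls of members over the 12 comparisons, 20 were kept under every alternative run and 23 were lost under at least 1. Over 1770 values of members under alternatives, 1586 kept sign and side of the threshold, 36 changed sign where neither value was called (CLDN2 with TGFb in MDCK-II among them), 90 lost a call, 58 gained one and 0 reversed a called direction. The number of genes called moved with the libraries in the fit, the block and the tool, and the cause was not tested. For siPRRX1 against siCTR, 249 genes were called, with 163 without the filter, 472 by DESeq2, 1159 in a fit of these groups alone and 2528 with the replicate block in that fit. For TGFb in MDCK-NBL2, 5525 became 510 in a fit of the groups alone and 40 with the replicate block. For the difference of responses, 711 became 48 and 49, and 1188 by DESeq2. For MDCK-NBL2 against MDCK-II untreated at day 4, 4527 became 1267 and 1076 with the block. For day 4 against day 0 in MDCK-II, 1223 became 496 with the block. For day 4 against day 0 in MDCK-NBL2, 2206 became 0 in edgeR fits of the groups alone without and with the block, where 1614 and 1216 genes had an unadjusted p under 0.05. The other replicate block fits moved no count by over 1.5 times. Leaving out 1 library at a time gave these ranges, with the library behind each bound. The highest of the counts below came without untreated day 4 MDCK-NBL2 replicate 2, except where named. The ranges were 509 (without MDCK-II day 0 replicate 1) to 2075 for day 4 against day 0 in MDCK-II, 729 (without day 0 replicate 2) to 5324 (without untreated day 4 replicate 3) for the same in MDCK-NBL2, 2797 (without treated replicate 2) to 5310 for TGFb against day 0 in MDCK-II, 1257 (without treated replicate 2) to 3862 for TGFb in MDCK-II, 311 (without TGFb-treated MDCK-NBL2 replicate 1) to 2653 for the difference of responses, and 54 (without siPRRX1 replicate 3) to 655 for siPRRX1 against siCTR. No scaling shifted the median of all genes by 0.1 or more on the log2 scale. Levels near or under 1 CPM, such as those of CLDN6 in MDCK-II, are limited by depth. Alternatives chosen after seeing the data left each doubtful library out of the fits of the further lists and each library out of the CLDN2 ratio, as given with those results.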

Other observations

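In both sublines untreated day 4 replicate 1 differed from replicates 2 and 3 in several of these genes, and the genes below were chosen after their values were seen. The same 5 members (CLDN1, CLDN2, CLDN3, TJP3 and CGN) were highest in replicate 1 in both sublines. TJP3 was 2.48 times its mean of replicates 2 and 3 in MDCK-II and 1.41 times in MDCK-NBL2, and CLDN3 was 1.32 times in both. CGNL1 was 1.74 and 5.71 times that mean, CDH16 12.3 and 23.2 times, and the kidney transcription factor PAX8 1.91 and 2.53 times. In MDCK-II, SNAI2 was at 0.172 times and the proliferation marker MKI67 at 0.655 times. The MDCK-NBL2 means include replicate 2, the library that stood apart. There SNAI2 was at 5.52, 53.8 and 9.52 CPM in replicates 1, 2 and 3, so its 0.175 times rested mainly on replicate 2. MKI67 was at 161, 35.3 and 435 CPM, with replicate 1 between the others. In untreated MDCK-NBL2, replicate 2 also stood apart in other genes, with COL1A1, a collagen of mesenchymal cells, at 596 CPM and 0 in replicates 1 and 3.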
